A study of Mus musculus with 20 samples.

Results

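The primitive endoderm (PrE) is the extraembryonic layer that separates from the epiblast inside the blastocyst. Its genes were followed here in single 8-cell (E2.5) mouse embryos, before that separation. The 9 genes were chosen by symbol: Gata6, Gata4, Sox17, Sox7, Foxq1, Pdgfra, Dab2, Col4a1 and Lama1. They are 9 of the 34937 genes in the count tables, and 5 of them passed the filter on low counts that left 11754 genes for testing. The question was how each gene was expressed embryo by embryo and whether maternal loss of the histone H3 lysine 9 methyltransferase G9a, encoded by Ehmt2, moved it.

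The control group, Ehmt2Cntr, came from Ehmt2F/+ mothers carrying Zp3-Cre, a recombinase driven by an oocyte promoter. The maternally depleted group, Ehmt2Mat, came from Ehmt2F/- mothers with the same Cre, so the oocyte carried no functional copy. Both were of mixed background, were sired by Ehmt2+/- males, were naturally mated and were picked as morphologically normal, and each whole embryo was amplified as 1 library. Files were analysed for 9 controls, of which 6 were zygotically +/+ and 3 were +/-, and for 10 mutants, of which 5 were +/- (Ehmt2M/+) and 5 were -/- (Ehmt2M/Z). The labels do not give the litters, so p-values measure the spread between these embryos only.

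Total counts ran from 8231646 to 30602434 per embryo, and 3 counts, the floor used for detection, were worth 0.0911 to 0.363 counts per 1000000 counts of the scaled library (CPM). Embryonic markers were present in every library: the sum of 10 8-cell and trophectoderm markers was 2121 to 3466 CPM in controls and 3080 to 4024 CPM in mutants. Some libraries also held reads of oviduct epithelium (5 genes, led by Ovgp1, the oviductal glycoprotein) and of stroma and fibroblasts (7 genes, led by Dcn). The oviduct sum was 0.0904 to 29.7 CPM in 8 controls, 389.7 CPM in control 10 and 10.1 to 2868 CPM in mutants. The stroma sum was at most 0.296 CPM in those 8 controls, 99.2 CPM in control 10 and 0 to 195.4 CPM in mutants. It exceeded 5 CPM in 8 embryos, namely control 10 and mutants 1, 2, 3, 4, 5, 6 and 9, and these are called stroma-marked. All 5 oviduct genes and all 7 stroma genes had counts somewhere. The sum of 12 cumulus and granulosa markers was 0 to 7.37 CPM in controls and 0 to 83.7 CPM in mutants. Of these, 7 had counts and 5 (Amh, Foxl2, Fshr, Has2 and Ptx3) were at 0 in every embryo. The 6 blood genes summed to at most 9.33 CPM. Results are given with and without the stroma-marked embryos.

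Background on the genes is as follows. GATA6 is the earliest of the PrE transcription factors, is present broadly before lineages separate, and later opposes NANOG. GATA4, SOX17 and SOX7 are normally added later, as PrE precursors commit. PDGFRA is a receptor tyrosine kinase on PrE cells, DAB2 is an endocytic adaptor for receptors of the LDL receptor family and takes part in ordering the endoderm layer, and COL4A1 and LAMA1 are chains of collagen IV and laminin, the basement membrane components that endoderm secretes. FOXQ1 is a forkhead transcription factor.

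In GRCm38 coordinates, Gata6 (ENSMUSG00000005836) lies at chr18:11052510-11085635 on the plus strand and Gata4 (ENSMUSG00000021944) at chr14:63198922-63271692 on the minus strand. Dab2 (ENSMUSG00000022150) lies at chr15:6299788-6440712, Pdgfra (ENSMUSG00000029231) at chr5:75152292-75198215 and Lama1 (ENSMUSG00000032796) at chr17:67697265-67822645, all on the plus strand. Col4a1 (ENSMUSG00000031502) lies at chr8:11198423-11312826 and Sox17 (ENSMUSG00000025902) at chr1:4490931-4497354, both on the minus strand. Sox7 (ENSMUSG00000063060) lies at chr14:63943674-63950732 and Foxq1 (ENSMUSG00000038415) at chr13:31558324-31560976, both on the plus strand. Counting covered exons without regard to strand, so shared exonic bases cannot be assigned. Foxq1 shares 1010 of its 2653 exonic bases with the antisense gene A530084C06Rik. Pdgfra shares 486 of 10024 with Gm42802 and Mir7025, Gata6 58 of 3194 with 1010001N08Rik and Col4a1 22 of 6818 with Col4a2. The other 5 genes share none.

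RefSeq promoter windows on GRCm38.p6, 250 bases before to 50 after a start site, were found for 3 of the 9 genes, Dab2, Pdgfra and Col4a1. They were searched for GATAA on both strands (TTATC on the other), the core read by GATA factors. Dab2 is shown because it was the called gene with a window, and its alternative starts differ. The upstream window, chr15:6299539-6299838, holds 2 matches, at positions -178 and 14 from the start site, and the downstream window, chr15:6386498-6386797, holds 0 (plus strand, matches in capitals):

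Dab2 upstream start: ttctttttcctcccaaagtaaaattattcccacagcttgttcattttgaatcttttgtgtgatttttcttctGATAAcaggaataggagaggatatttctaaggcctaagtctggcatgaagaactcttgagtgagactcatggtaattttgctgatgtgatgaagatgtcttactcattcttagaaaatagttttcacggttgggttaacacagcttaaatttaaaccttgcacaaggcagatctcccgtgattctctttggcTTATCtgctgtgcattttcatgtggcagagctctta

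Dab2 downstream start: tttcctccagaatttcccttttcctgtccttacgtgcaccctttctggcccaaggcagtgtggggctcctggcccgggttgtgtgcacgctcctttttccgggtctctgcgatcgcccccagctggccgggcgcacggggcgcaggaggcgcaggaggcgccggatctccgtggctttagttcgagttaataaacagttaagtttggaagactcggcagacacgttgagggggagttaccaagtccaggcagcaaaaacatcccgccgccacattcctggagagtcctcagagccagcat

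The Pdgfra and Col4a1 windows also hold 0 matches. Of all 32851 windows, 25.4% hold at least 1 match and 5.27% hold at least 2, so a match is common. The Col4a1 window overlaps that of its head-to-head neighbour Col4a2 by 78 bases.

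Only Gata6, Gata4 and Dab2 reached 3 counts in all 19 embryos. Pdgfra did so in 17 embryos, Col4a1 in 11, Sox17 in 9, Sox7 in 4, Lama1 in 3 and Foxq1 in 1. Together this is 102 of 171 gene-by-embryo values. Levels of different genes were compared per exonic length, as CPM per 1000 exonic bases (RPKM). Because the cDNA was primed at the 3' end, these levels are approximate for long transcripts. In controls the order of mean RPKM was Gata6 at 178.9 ± 76.6 (SD, n = 9), Gata4 at 51.1 ± 19.4, Dab2 at 15.2 ± 14.8, Pdgfra at 0.856 ± 0.958, Col4a1 at 0.563 ± 0.803 and Sox17 at 0.344 ± 0.994. Sox7, Foxq1 and Lama1 followed at 0.0600 or less. Gata6 lay just above Gata4 without overlap (lowest 86.1 against highest 85.5 RPKM), and Dab2 lay above Pdgfra (lowest 3.15 against highest 2.48 RPKM). The ranges of Gata4 and Dab2 overlapped, as did those of Pdgfra, Col4a1 and Sox17. In mutants Gata4 led at 81.7 ± 31.4 RPKM (n = 10), ahead of Gata6 at 49.6 ± 37.8 and Dab2 at 4.63 ± 3.26.

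**Figure D1:**
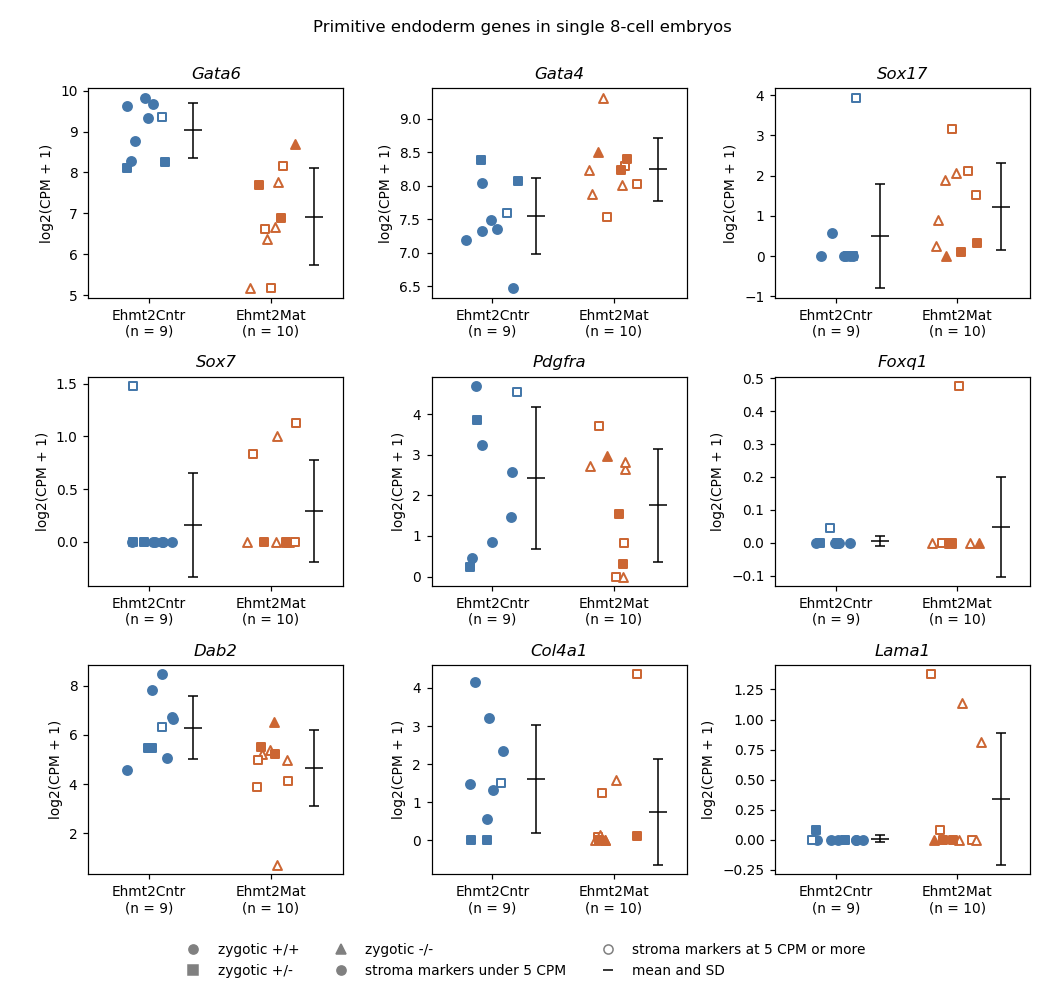
Level of each gene in every embryo as log2(CPM + 1), with controls in blue and mutants in orange. Shapes give the zygotic genotype, open symbols the 8 stroma-marked embryos, and bars the mean and SD. Gata6 sits lower in mutants with some overlap, Gata4 sits higher, and the higher values of Sox17, Sox7 and Lama1 are open symbols.

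Gata6 was lower in maternally depleted embryos. It had 275.1, 645.6 and 906.1 CPM at the lowest, median and highest control, against 34.9, 108.3 and 412.6 CPM in mutants. All 10 mutants lay under the control median and 8 lay under every control, while 6 of 9 controls exceeded every mutant. The groups therefore overlapped only through mutants 6 and 7 and controls 1, 3 and 9. The mean was 571.5 ± 244.6 CPM in controls (n = 9) and 158.5 ± 120.9 CPM in mutants (n = 10). In edgeR's quasi-likelihood test the log2 fold change was -1.85 ± 0.39 (SE) with a Benjamini-Hochberg adjusted p of 0.0041. The exact two-sided permutation test on log2(CPM + 1), over 92378 splits, gave a difference of -2.11 with p = 0.000325. In a whole-embryo library, fewer cells expressing a gene and less RNA per cell cannot be told apart.

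The call for Gata6 did not hold in every subset. Without stroma-marked embryos, 8 controls averaged 560.4 ± 259.1 CPM and the remaining 3 mutants 116.9, 205.2 and 412.6 CPM. All 3 are below the mean of the controls, and mutant 7 lies inside their range. The log2 fold change was -1.19 there with an adjusted p of 0.419, and -1.43 with an adjusted p of 0.1004 when the oviduct sum was a covariate. Control 10, with 99.2 CPM of stroma markers, had 660.3 CPM of Gata6. The stroma-marked mutants 1, 2, 3, 4, 5, 6 and 9 had 35.0, 97.6, 34.9, 81.4, 99.7, 284.5 and 217.4 CPM. Among embryos with zygotic genotype +/-, 3 controls averaged 413.5 ± 214.3 CPM and 5 mutants 147.8 ± 97.7 CPM, with a log2 fold change of -1.51 and an adjusted p of 0.650. Over all genes, few were called in these fits: 10 without stroma-marked embryos, 31 with the oviduct covariate and 1 in the +/- embryos. With all embryos and no covariate 1099 were called. In each of these fits Gata6 had an unadjusted p under 0.05 by the quasi-likelihood test. The part of the non-embryonic reads in the difference was not tested.

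Gata4 went the other way without passing the threshold in the edgeR fit. The lowest, median and highest control had 87.8, 179.9 and 333.7 CPM, and the mutants 185.6, 300.9 and 635.6 CPM. All 10 mutants exceeded the control median, 3 exceeded every control, and 5 controls lay below every mutant. The log2 fold change was 0.68 ± 0.23 with an adjusted p of 0.0667, and the exact permutation test gave an unadjusted p of 0.00749. DESeq2 gave 0.67 with an adjusted p of 0.0315, so the side of the threshold depended on the tool. Without stroma-marked embryos the log2 fold change was 0.74 with an adjusted p of 0.481. In the +/- embryos the levels were 265.4 ± 70.6 CPM in 3 controls and 279.3 ± 59.4 CPM in 5 mutants. Among controls, the 6 +/+ embryos averaged 166.7 ± 57.3 CPM.

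The balance of both GATA genes within an embryo does not depend on library scaling and is given as a description, since it was chosen after their levels were seen. Per exonic length, Gata6 exceeded Gata4 in all 9 controls and in 2 of 10 mutants, mutants 6 and 7. The log2 ratio ran from 0.01 in control 1 to 3.66 in control 7, with a mean of 1.77 ± 1.12. In mutants it ran from -2.82 in mutant 1 to 0.48 in mutant 7, with a mean of -1.05 ± 1.03. In the 3 mutants that were not stroma-marked it was -1.24, -0.26 and 0.48.

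Dab2 was lower in mutants, narrowly past the threshold. Controls had 23.1, 79.8 and 350.1 CPM at the lowest, median and highest, and mutants 0.659, 33.3 and 90.2 CPM. Mutant 9 stood alone at 10 counts, and 3 mutants lay below every control while 4 controls lay above every mutant. The log2 fold change was -1.71 ± 0.55 with an adjusted p of 0.0489. The call was lost in 12 of the 19 fits that left out an embryo. Without control 7 the log2 fold change was -1.26 with an adjusted p of 0.149, and in the other 11 it was -1.51 to -1.76 with adjusted p-values of 0.0585 to 0.0965. Without mutant 9 it was -1.56 and stayed called (adjusted p = 0.0395). Without stroma-marked embryos it was -1.01 with an adjusted p of 0.760. The +/+ controls averaged 139.1 ± 126.1 CPM (n = 6) and the +/- controls 55.5 ± 21.0 CPM (n = 3).

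Pdgfra and Col4a1 were low and uneven, and neither passed the test. Pdgfra ran over 0.174, 4.97 and 24.9 CPM in controls (lowest, median, highest) and 0, 3.60 and 12.01 CPM in mutants, with 2 mutants, 3 and 9, at 0. Its log2 fold change was -1.14 ± 0.96 with an adjusted p of 0.526, and without stroma-marked embryos -1.18 with an adjusted p of 0.903. Within the control group, control 1 had 3 counts and control 10 had 702. Col4a1 ran over 0, 1.76 and 16.7 CPM in controls and 0, 0.0690 and 19.5 CPM in mutants. Its highest embryo was mutant 3, a stroma-marked embryo that held 33.8% of the summed CPM, and 8 of 10 mutants were below the control median. The log2 fold change was -0.75 ± 1.35 with an adjusted p of 0.810. It ran from -7.10 without stroma-marked embryos (adjusted p = 0.411) to 2.78 with zygotic copies as a covariate, with -3.13 by DESeq2 (adjusted p = 0.0674) and 0.03 without control 7. In the 3 mutants that were not stroma-marked, Col4a1 had 1 count in all.

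Sox17, Sox7, Foxq1 and Lama1 were too low for the filter, and their reads fell almost wholly in stroma-marked embryos. Sox17 had 782 counts, of which 449 were in control 10, and 97.4% were in the 8 stroma-marked embryos. Control 8 had 13 and the other 7 controls had 0. Mutants had 0 to 104 counts, and Sox17 reached 3 counts in 7 of 10 of them, 6 of these being stroma-marked. The difference on log2(CPM + 1) was 0.73 (exact permutation p = 0.201), and without control 10, the only stroma-marked control, it was 1.16 (exact permutation p = 0.00775). Without all 8 stroma-marked embryos it was 0.08 (exact permutation p = 0.661), with 20 counts left in 11 embryos.

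Sox7 had 123 counts in 4 embryos, 56 in control 10, 33 in mutant 4, 20 in mutant 6 and 14 in mutant 2, and all 4 were stroma-marked. Foxq1 had 8 counts, 7 in mutant 2 and 1 in control 10. Lama1 had 67 counts, 27 in mutant 6, 25 in mutant 4, 13 in mutant 1, 1 in mutant 2 and 1 in control 1. Exact permutation p-values were 0.582 for Sox7, 1.0 for Foxq1 and 0.173 for Lama1. The edgeR fit without a filter gave adjusted p-values of 0.956 for Sox17, 0.895 for Sox7, 0.232 for Foxq1 and 0.0592 for Lama1. In the 11 other embryos Sox7 and Foxq1 had 0 counts, which the floor of 3 counts per library limits to 0.115 to 0.271 CPM for an embryo. Among the stroma-marked embryos, Sox17 was highest in control 10 (14.3 CPM) and next in mutant 3 (8.00 CPM), which had the highest stroma sums. Mutant 3, which also had the lowest total counts, had 0 counts of Sox7, Foxq1 and Lama1. Lama1 was highest in mutant 6, with a stroma sum of 14.1 CPM. The part of non-embryonic reads was not tested.

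**Figure D2:**
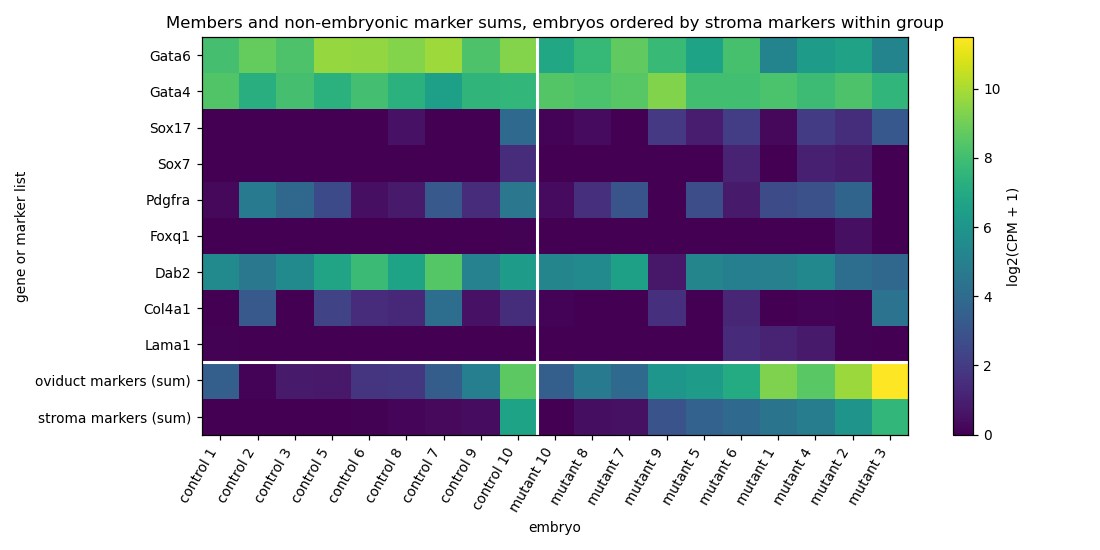
Heat map of log2(CPM + 1) for the 9 genes and for the summed oviduct and stroma markers, with controls left of the white line and mutants right, ordered by stroma markers within each group. Most reads of Sox17, Sox7, Foxq1 and Lama1 sit in the stroma-marked embryos (control 10 and the 7 mutants on the right), though mutant 3, at the far right, is at 0 for Sox7, Foxq1 and Lama1, while Gata6 and Gata4 are present in every embryo.

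Read against the background, 2 of the 5 tested genes were called in this comparison, Gata6 and Dab2, both lower. Over all tested genes 9.35% were called (1099 of 11754), 4.37% higher and 4.98% lower. The median log2 fold change was -1.14 over the 5 genes and -0.04 over all tested genes. Genes that were too low for the filter are not in these counts.

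**Figure D3:**
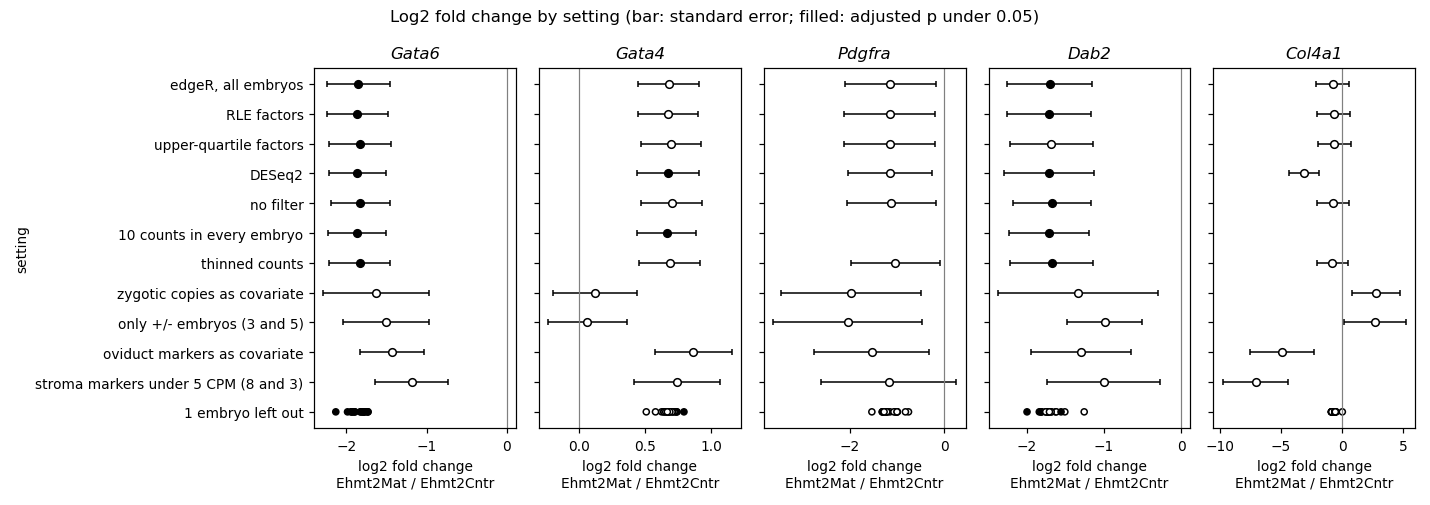
Log2 fold change of the 5 tested genes (Ehmt2Mat over Ehmt2Cntr) under each setting, with bars for the standard error and filled symbols for an adjusted p under 0.05. Gata6 stays negative under all settings shown, from -2.13 to -1.19, but is open with zygotic copies or oviduct markers as a covariate and in both subsets. Dab2 is filled only in part of the settings, and Col4a1 crosses 0.

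No gene of the 9 differed detectably with the zygotic allele in maternally depleted embryos. The filter left 5 of them for this test, Gata6, Gata4, Dab2, Pdgfra and Sox17. The fit without a filter covered all 9 and called 0 of them. The test of Ehmt2M/Z against Ehmt2M/+ by edgeR called 0 of 12195 genes (0.0%), with 270 at an unadjusted p under 0.05, and DESeq2 called 3. Gata6 averaged 169.2 ± 151.7 CPM in Ehmt2M/Z (n = 5) and 147.8 ± 97.7 CPM in Ehmt2M/+ (n = 5), a log2 fold change of 0.19 ± 0.60. Gata4 averaged 358.3 ± 162.5 against 279.3 ± 59.4 CPM, a log2 fold change of 0.36 ± 0.28. Dab2 was at 0.49 ± 0.73, Pdgfra at 0.67 ± 1.36 and Sox17 at -0.94 ± 1.37, all with an adjusted p of 0.9997. Standard errors of this size do not show that the subgroups were alike. Ehmt2 itself, the targeted gene, averaged 141.5 ± 59.7 CPM in controls, 121.0 ± 33.0 CPM in Ehmt2M/+ and 83.1 ± 20.4 CPM in Ehmt2M/Z. Its log2 fold change between the maternal groups was -0.47 ± 0.24 with an adjusted p of 0.233. Counts over the whole gene do not separate the deleted exons from the rest, so they do not check the deletion.

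Coexpression between embryos was computed for the 5 genes that passed the filter, as 10 pairs of log2 CPM centred within maternal genotype. Over all 19 embryos no pair passed Benjamini-Hochberg adjustment (2 pairs had an unadjusted permutation p under 0.05). The lowest adjusted p was 0.221, for Gata4 with Col4a1 (r = -0.52, permutation p = 0.0310, rho = -0.49) and for Gata4 with Dab2 (r = -0.48, permutation p = 0.0442, rho = -0.23). Without mutant 9, the embryo lowest in Dab2 and highest in Gata4, 2 pairs passed: Gata6 with Dab2 (r = 0.65, permutation adjusted p = 0.0044) and Gata4 with Col4a1 (r = -0.79, permutation adjusted p = 0.0009). Over all embryos Gata6 with Dab2 had r = 0.23 and rho = 0.40, and Gata6 with Gata4 had r = 0.09 and rho = 0.08. Without the 2 embryos farthest in Gata4, the r of Gata4 was -0.73 with Col4a1 and 0.11 with Dab2, so the latter rested on those embryos.

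Within the 9 controls alone, 3 pairs passed adjustment over the 10. These r were not centred on zygotic genotype, and mean levels were unequal in the 3 +/- and the 6 +/+ controls. In that order Gata6 averaged 413.5 ± 214.3 and 650.5 ± 234.3 CPM, and Gata4 265.4 ± 70.6 and 166.7 ± 57.3 CPM. Dab2 averaged 55.5 ± 21.0 and 139.1 ± 126.1 CPM, and Col4a1 0.604 ± 1.05 and 5.46 ± 6.17 CPM. The part of zygotic genotype in these correlations was not tested. Gata6 was correlated with Dab2 (r = 0.83, rho = 0.80, exact permutation p = 0.00711, adjusted p = 0.0355). It was also correlated with Col4a1 (r = 0.79, rho = 0.82, exact permutation p = 0.0120, adjusted p = 0.0399). Gata4 was inversely correlated with Col4a1 (r = -0.86, rho = -0.87, exact permutation p = 0.00295, adjusted p = 0.0295). Col4a1 was low in controls, with 0 counts in controls 1 and 3, both +/-, 8 in control 9 and at most 217, in control 7. When any control was left out, these r stayed within 0.79 to 0.89, 0.71 to 0.92 and -0.93 to -0.79. Without the 2 controls farthest in the first gene they were 0.87, 0.52 and -0.69. In the 11 embryos that were not stroma-marked, r was 0.81, 0.61 and -0.85 for the same pairs, and the first and the last passed adjustment. Of those 11 embryos, 8 are controls already used here, so this is not a separate test.

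In the 10 mutants those pairs had r = 0.03, -0.20 and -0.16, and none of the 10 pairs passed adjustment. The lowest adjusted p was 0.0620, for Pdgfra with Col4a1 (r = -0.81, permutation p = 0.00620), in a group where Col4a1 reached 3 counts in 4 of 10 embryos. Leaving out 1 mutant moved these r between -0.22 and 0.68 for Gata6 with Dab2, -0.40 and 0.39 for Gata6 with Col4a1 and -0.77 and 0.49 for Gata4 with Col4a1. Whether the correlations differ between controls and mutants was not tested.

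**Figure D4:**
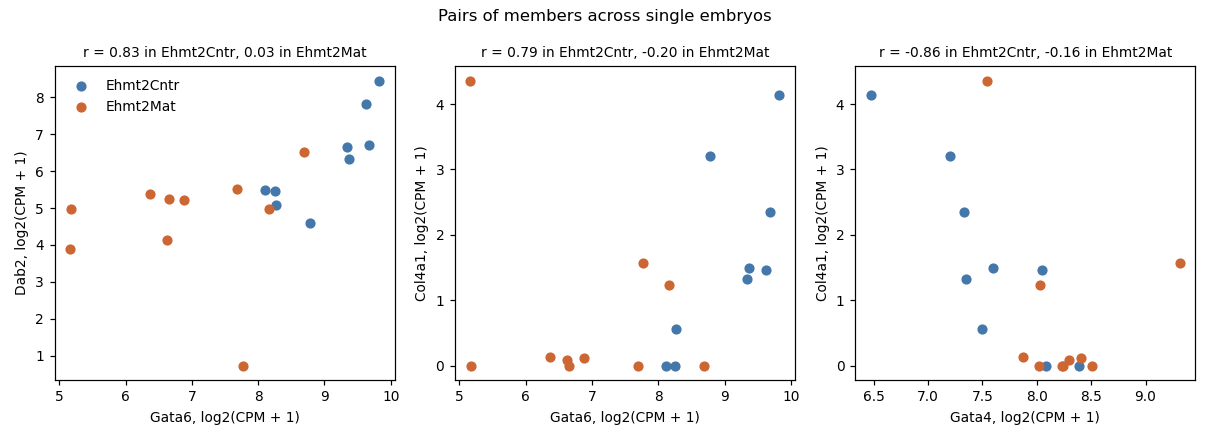
Pairs of genes across single embryos as log2(CPM + 1), with controls in blue and mutants in orange. The r above each panel is from log2 CPM with a prior count of 2 within each group. In controls r was 0.83 for Gata6 with Dab2, 0.79 for Gata6 with Col4a1 and -0.86 for Gata4 with Col4a1, against 0.03, -0.20 and -0.16 in mutants.

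The genes closest in pattern were ranked by the same centred correlation over 19 embryos and 11753 other tested genes, as a description. Cldn4 (0.80), a tight junction claudin, and Ppfia1 (0.79) were closest to Gata6. Lclat1 (0.82) and the lysosomal protease gene Ctsl (0.79) were closest to Gata4. Kmt2d (0.89), a histone H3 lysine 4 methyltransferase, and Med12l (0.87) were closest to Dab2. AA467197 (0.84) and Mir147 (0.80) were closest to Pdgfra, and Cradd (0.77) and Car14 (0.77) to Col4a1. Of these 10 genes, Ctsl was called higher in mutants (log2 fold change 0.77, adjusted p = 0.0154), and AA467197 and Mir147 were called lower (-3.63 and -3.56, adjusted p = 0.0018 and 0.0106). Mir147 lies within AA467197 on the same strand, so the pair can share reads.

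Other genes of the pathway were read from lists of PrE transcription factors, growth factor signalling, endocytosis, basement membrane, later extraembryonic endoderm products and epiblast counterparts. The share called over all tested genes, 9.35%, is the background for the counts. In the transcription factor list, 4 of 10 genes were tested and 3 were lower, Gata6, Klf5 and Sall4. Klf5, a Kruppel-like factor needed for the trophectoderm and inner cell mass, had 232.9 ± 68.4 CPM in controls and 82.7 ± 32.6 CPM in mutants (log2 fold change -1.49, adjusted p = 0.00049). Sall4, a pluripotency zinc finger factor, had 688.3 ± 302.4 and 327.8 ± 54.4 CPM (-1.07, adjusted p = 0.0016). Hnf4a was at 0 in every embryo.

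In the signalling list, 1 of 14 tested genes was lower and 0 were higher. Fgfr1, an FGF receptor that takes part in PrE specification, fell from 151.5 ± 85.1 CPM (n = 9) to 39.8 ± 21.5 CPM (n = 10). All 10 mutants were below the control median, 8 were below every control, and the log2 fold change was -1.93 ± 0.34 with an adjusted p of 0.0012. Without stroma-marked embryos it was -1.98 with an adjusted p of 0.220.

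Among 8 tested endocytic genes, 2 rose and 2 fell. The lysosomal proteases Lgmn (1.14, adjusted p = 0.0082) and Ctsl rose, and Dab2 and Amn (-3.32, adjusted p = 0.0261), which encodes amnionless, a partner of the cubilin receptor, fell. Of 19 tested basement membrane genes, Dag1, the dystroglycan receptor for laminin, fell (-1.42, adjusted p = 0.0030) and P4hb, the protein disulfide isomerase subunit of collagen prolyl hydroxylase, rose (0.66, adjusted p = 0.0459). Of 4 tested later endoderm products, Cited1, a transcriptional coregulator, was lower (-0.87, adjusted p = 0.0140). Ttr and Cer1, of that list, were at 0 in every embryo.

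In the epiblast list, 2 of 9 tested genes were lower, Klf4 (-1.67, adjusted p = 0.0021) and Prdm14 (-2.07, adjusted p = 0.0346), both factors of naive pluripotency, and 0 were higher. Median log2 fold changes were -1.28 for transcription factors, -0.50 for signalling, -0.26 for endocytosis, -0.44 for basement membrane, 0.78 for later products and -0.97 for the epiblast list, against -0.04 over all tested genes. Without stroma-marked embryos, 0 of the 13 list genes called over all embryos passed the threshold, with adjusted p-values of 0.156 to 0.760. That fit, with 8 controls and 3 mutants, called only 10 of all 12975 genes it tested. The 13 log2 fold changes there were -2.92 to 0.94, each with the sign it had over all embryos. The genes were picked by their calls over all embryos, which include the subset. The shared sign is therefore not a separate test.

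**Figure D5:**
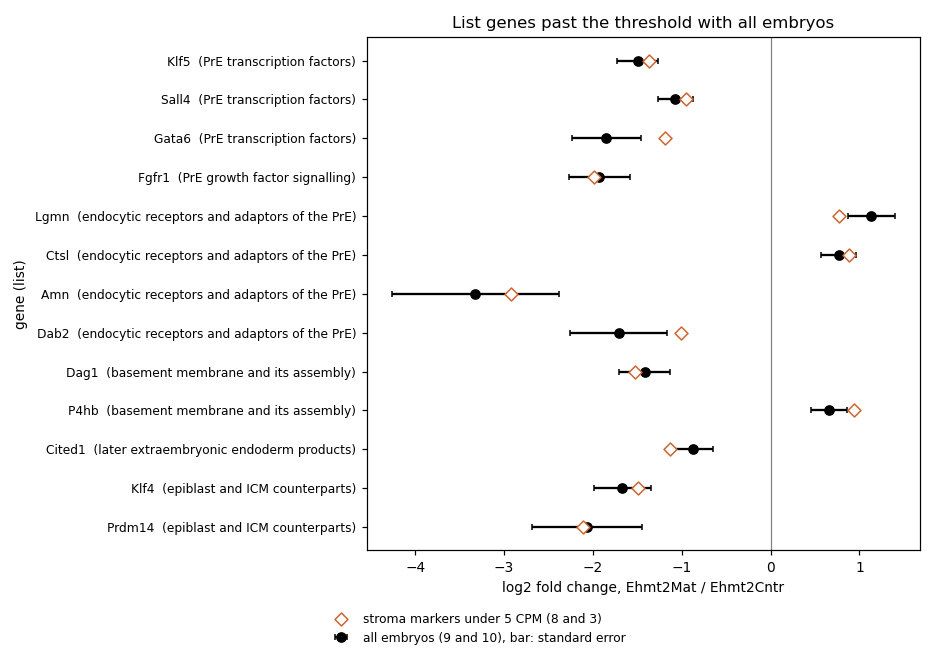
Log2 fold change (Ehmt2Mat over Ehmt2Cntr) of the list genes past the threshold, with black points and standard errors for all embryos and open diamonds for embryos with stroma markers under 5 CPM. In the subset Gata6 was at -1.19 ± 0.46 (SE, not drawn), Dab2 at -1.01 ± 0.73 and Fgfr1 at -1.98 ± 0.55. Over all embryos they were at -1.85, -1.71 and -1.93. Whether the shifts differ between genes was not tested.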

How the data were processed

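Whole 8-cell embryos were amplified as single-embryo cDNA and sequenced by the study. The deposited values are raw read counts per gene: per the file headers, the authors ran featureCounts 1.5.0 on exons of Ensembl release 82 (GRCm38/mm10), keeping multimapped reads and reads overlapping several genes by at least 10 bases, with no strand option. The labels' processing notes name TopHat2. Symbols matched 34599 of 34937 genes. CPM used TMM-scaled totals. Ehmt2Mat was compared with Ehmt2Cntr, and Ehmt2M/Z with Ehmt2M/+, by edgeR 4.0.16 quasi-likelihood tests (R 4.3.3) after filterByExpr, with adjusted p under 0.05 as a call. Genes below the filter were tested by exact permutation with a pseudocount of 1, and pairs with 100000 permutations within genotype and a prior count of 2. Standard errors were taken as the log2 fold change over the root of F. The edgeR steps were tested on simulated data. There they recovered 16 of 94 genes changed by 1 log2 unit (17.0%) and 57 of 95 changed by 2 (60.0%), so smaller changes were often missed. Named were the 9 genes, Ehmt2, Fgfr1, at most 6 called genes per list, and the 2 closest patterns per tested gene. The members and lists were chosen with earlier results of these data known. Alternatives were DESeq2 1.42.0, other scalings and filters, thinning, covariates and left-out embryos. Control 4 was not analysed here. Intervals from counts cover counting error only. A gene of the signalling list is not reported here.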

Additional observations from a re-analysis of the deposited data

Results flagged for a closer look

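Values that stood apart from the rest of their group were sought with Dixon's ratio on log2(CPM + 1), in 18 checks of a gene in a group, of which chance alone flags about 1 in 20. There were 7 such values, and in 4 of them, Sox7, Lama1 and both for Foxq1, every other embryo of the group was at 0, so that any count stands apart and the chance rate does not apply. Control 10 stood above the other controls in Sox17 (14.28 CPM), Sox7 (1.78 CPM) and Foxq1 (0.0318 CPM, 1 count). Mutant 2 stood above the other mutants in Foxq1 (0.391 CPM, 7 counts), and mutant 3 in Col4a1 (19.5 CPM). Mutant 9 stood below the other mutants in Dab2 (0.659 CPM, 10 counts). Control 1 stood above in Lama1 (0.0579 CPM, 1 count). Control 10, mutant 2, mutant 3 and mutant 9 are stroma-marked, with summed stroma markers of 99.2, 60.8, 195.4 and 6.73 CPM, and control 1 had 0 CPM.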

How the results depend on the processing

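Against 1099 genes called, DESeq2 called 1775, the replicate block on embryo numbers 699, zygotic copies as a covariate 3, +/- embryos alone 1, embryos with little stroma signal 10 and the oviduct covariate 31; leaving out an embryo gave 884 to 1262. The last 2 settings were chosen after seeing the data. Of the 9 genes, 1 was called with upper-quartile factors (Dab2 then at an adjusted p of 0.0507) and 0 with zygotic copies, +/- embryos, little stroma signal or the oviduct covariate, with 1, 1, 3 and 2 at an unadjusted p under 0.05; the range without single embryos was 1 to 3. Zygotic copies and maternal group overlap, since no control is -/- and no mutant +/+. Gata4 passed with DESeq2, with 10 counts in every embryo (adjusted p = 0.0376), and in 2 of 19 fits without an embryo. Col4a1 was -3.13 with DESeq2, -4.20 under the replicate block, -4.94 with the oviduct covariate and -7.10 with little stroma signal, and reversed with zygotic copies (2.78), +/- embryos (2.70) and without control 7 (0.026, with a range of -0.88 to 0.026 over single embryos). For Ehmt2M/Z against Ehmt2M/+, DESeq2 called 3 genes, and 0 were called without any embryo; Gata6 reversed without mutants 3 (-0.062) and 7 (-0.45 to 0.58 over single embryos), Sox17 without mutant 3 (-1.50 to 0.0063), Fgfr1 without mutant 9 (-0.093 to 0.65), and Dab2 without mutant 7 (-0.055 to 0.81) and by exact permutation (-0.18). Without single embryos the differences were 0.51 to 1.16 for Sox17, 0.04 to 0.30 for Sox7, -0.0050 to 0.0479 for Foxq1 and 0.22 to 0.37 for Lama1; with little stroma signal they were 0.08 for Sox17, 0 for Sox7 and Foxq1, and -0.0102 for Lama1. Detection with little stroma signal was 52 of 99 values. Coexpressed pairs numbered 3 within controls, 2 with little stroma signal and 0 to 2 without single embryos (2 without mutant 9). The embryo numbers do not pair embryos: same-numbered deviations correlated between -0.16 and 0.09, and 0 of 9 controls were closest to the mutant of their number. Under the block Gata6 and Dab2 stayed called (adjusted p = 0.0042 and 0.0279). The cause of these changes was not tested.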
